A study of Mus musculus with 10 samples.

Results

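Matrix metalloproteases (MMPs), the related ADAMTS proteases, the ADAMTS-like proteins and the tissue inhibitors of metalloproteases (TIMPs) were examined in mouse hair follicle stem cells (HFSCs), the resting stem cells of the hair follicle bulge. Every row of the deposited expression table whose gene symbol has the form Mmp, Adamts, Adamtsl or Timp followed by a number was taken, which gave 51 of 37298 rows: 23 Mmp, 19 Adamts, 5 Adamtsl and 4 Timp genes. The study asked which genes of HFSCs depend on the transcription factor SOX9 and where SOX9 binds, with secreted signals of the niche as its stated interest. RNA sequencing gave 4 libraries of HFSCs sorted from telogen (resting phase) back skin as integrin α6-high, CD34+, ScaI- and YFP+ cells of mice on a mixed C57BL6 background. Of these, 2 libraries are labelled Sox9 cKO (conditional knockout) and 2 are controls, whose titles call them Sox9 Het and whose genotype field calls them wild type. All 4 libraries come from mice treated with RU486, which activates CrePGR, a Cre that needs a progesterone receptor ligand. The promoter that drives CrePGR is not in the labels. In replicate 1 the mice of either genotype were males of day 75 that had received RU486 from day 48 to day 61. In replicate 2 they were females of day 80 that had received it from day 53 to day 66. Binding of SOX9 came from ChIP-seq, the sequencing of immunoprecipitated chromatin, in 2 HFSC libraries and 1 library of interfollicular epidermis (IFE), all from CD-1 females of days 52 to 60 with no treatment. The HFSCs for ChIP were sorted as integrin α6-high, CD34+ and ScaI- cells and the IFE cells as integrin α6-high, CD34- and ScaI- cells. How many mice went into a library is not stated. The 2 RNA replicates of a genotype come from different mice, so their spread also holds sex, age and RU486 days. The spread between the 2 HFSC ChIP libraries may be technical.

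MMPs are zinc proteases, secreted or held on the cell membrane, that cut collagens, other matrix proteins and cell surface proteins. ADAMTS proteases are secreted relatives that carry thrombospondin repeats and bind matrix; one branch cuts large proteoglycans such as versican and aggrecan, another removes the N-propeptide of procollagens, and the ADAMTS-like proteins share the repeats but have no protease domain. TIMPs bind and block the active site of MMPs, and TIMP2 also takes part in the activation of pro-MMP2 on the cell surface by MMP14.

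Expression is given as FPKM, a fragment count scaled by transcript length and library size, which is a level per length and lets genes be set side by side. The FPKM values summed to between 555420 and 903766 in the 4 libraries, and the read depth behind them is unknown. Sox9 itself stood at 71.3 and 80.5 FPKM in libraries labelled cKO (replicates 1 and 2), against 82.7 and 46.5 FPKM in the controls, lower than its control in replicate 1 and higher in replicate 2. Whether the deleted part enters this value is not stated. Directions below follow the labels. All 12 HFSC markers passed the filter, with Krt15 at 8703 FPKM or more in every library. Of these, 2 were higher in both pairs, 4 lower in both and 6 opposite, and 1 was called: Lhx2, a bulge transcription factor, was lower (114 and 87.1 FPKM in libraries labelled cKO, against 359 and 195 FPKM in controls; limma with the replicate number as a block, adjusted p = 0.0273). Endothelial and mast cell markers summed to 0.411 FPKM or less in each library. The 6 markers of epidermal differentiation summed to 3043 and 5320 FPKM in libraries labelled cKO, against 3187 and 8310 FPKM in controls, 5 of them lower in both pairs and 0 called. The 3 Langerhans cell markers summed to 46.1 and 79.7 FPKM in libraries labelled cKO, against 48.1 and 121 FPKM in controls, all 3 lower in both pairs and 0 called. The part of these markers in the results below was not tested. The replicate 2 library labelled cKO stood apart in some genes of smooth muscle. Acta2, Tagln, Des, Myh11 and Rgs5 summed to 61.4 FPKM there, against between 3.35 and 4.24 FPKM in the other libraries. Acta2 (35.8 FPKM), Tagln (20.4) and Des (5.01) carried this sum, while Myh11 and Rgs5 stood at only 0.190 and 0.0602 FPKM.

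A small set of secreted and membrane-bound members made up most of the family's expression. Timp2, the MMP inhibitor, had the highest mean of the 51 (165 FPKM). It was followed by Adamtsl4, an ADAMTS-like protein that binds fibrillin microfibrils (97.4 FPKM), by Mmp2 (67.2 FPKM), a gelatinase that cuts type IV collagen, and by Mmp14 (48.3 FPKM), the membrane-type MMP that activates MMP2. Adamts1, a protease of the proteoglycan-cutting branch, and Adamtsl5 came next at means of 25.7 and 25.4 FPKM. The ranges over libraries of neighbours in this order overlapped: Adamtsl4 lay between 50.2 and 174 FPKM and Mmp2 between 51.96 and 96.7 FPKM. Timp2, Adamtsl4, Adamtsl5, Mmp2 and Mmp14 were the 5 members at or above 10 FPKM in every library. Timp2 alone held between 25.1% and 43.6% of the summed FPKM of all 51 members in a library.

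**Figure D1:**
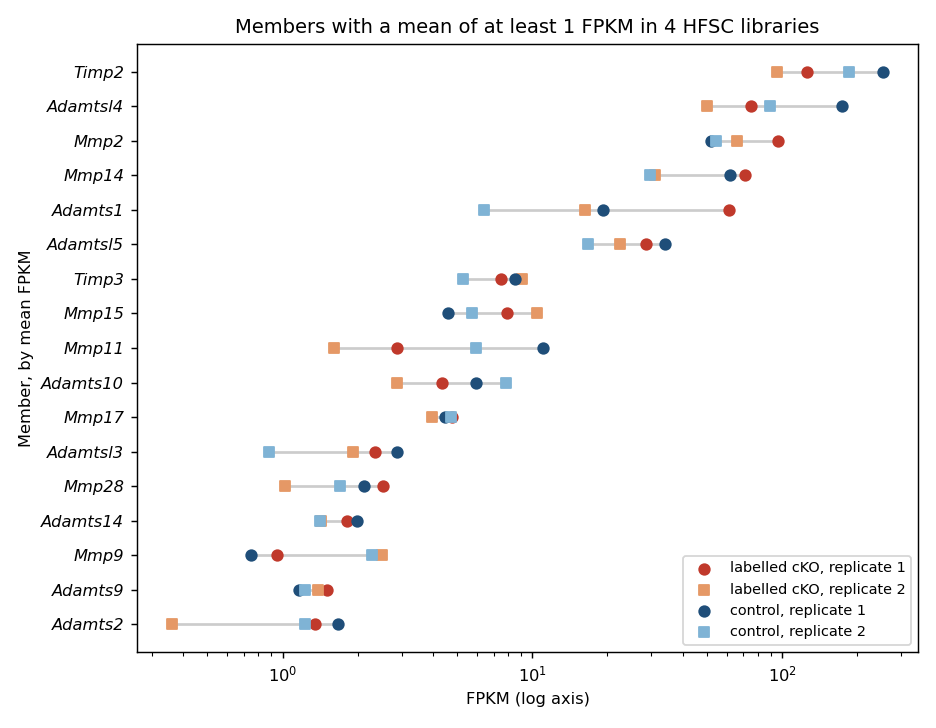
FPKM (log axis) of the 17 members with a mean of at least 1 FPKM in each of 4 HFSC libraries, ordered by mean; red and orange points are the libraries labelled cKO, dark and light blue points the controls, circles replicate 1 and squares replicate 2. Timp2 lies highest with a mean of 165 FPKM, and both libraries labelled cKO lie below both controls for Timp2, Adamtsl4, Mmp11 and Adamts10.

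Of the 51 members, 17 had a mean of at least 1 FPKM over the 4 libraries, the level from which genes were tested; these were 7 Mmp, 5 Adamts, 3 Adamtsl and 2 Timp genes. The other 34 members were low, and 29 of the 51 stayed under 1 FPKM in every library. The 5 low members that passed 1 FPKM in some library were Timp1 (highest value 2.65 FPKM), Adamts19 (1.502), Mmp3 (1.46), Adamts17 (1.18) and Mmp23 (1.09). Of the 29, the procollagen N-proteinase Adamts3 reached 0.879 FPKM, Adamtsl1 0.716, Adamts7, of the COMP-cutting branch, 0.580, Adamts6 0.425 and the aggrecanase Adamts5 0.409 FPKM. Adamts13, which cuts von Willebrand factor, reached 0.247 FPKM, Mmp24 0.162 and Adamtsl2 0.146 FPKM. Adamts4, Adamts8, Adamts12, Adamts15, Adamts18, Adamts20, Mmp16, Mmp19, Mmp21 and Mmp25 reached at most 0.0912 FPKM. The 4 collagenase genes, of a group named for the cutting of fibrillar collagen, were among the lowest. Mmp1a and Mmp1b were listed at 0 in all libraries, and Mmp8 and Mmp13 did not exceed 0.134 FPKM. With the depth unknown, a listed 0 does not show absence. A cluster of 10 Mmp genes on chromosome 9 (mm9, 7272513 to 7699585), which holds all 4 collagenases beside stromelysins, matrilysin and enamelysin, held no tested member. Mmp3, a stromelysin, reached 1.46 FPKM there and no other gene of the cluster more than 0.134 FPKM. Mmp20, Adamts16 and Timp4 were the other members listed at 0 in all 4 libraries.

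Expression in the libraries labelled cKO was compared with the controls to ask which of these genes change with the Sox9 genotype. The planned limma fit, with genotype alone, called 0 of 14455 genes and hence 0 members. In the alternative fit with a replicate block, the protease Adamts1 was called higher in the libraries labelled cKO. The protease Mmp11 and the inhibitor Timp2 were called lower there. These 3 of 17 tested members were called with limma on log2(FPKM + 1) with the replicate number as a block, so that each library labelled cKO is set against its same-numbered control. Of all 14455 tested genes 41 were called there, or 0.284%, with 0.104% higher and 0.18% lower. Without the block, in the planned limma fit, the adjusted p was 0.99965 for each of the 3. Before adjustment 93 genes, 0.643%, had p under 0.05 without the block, Mmp11 the one member among them, and 1648 genes, 11.4%, had it with the block, with 7 members among them. The calls depend on the scaling: rescaling every library to the same FPKM sum left 9 genes and 0 members called in the blocked fit, with the median of all genes at -0.13. These are bulk values, in which fewer cells of a type and less RNA per cell cannot be told apart.

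Adamts1 (ENSMUSG00000022893; mm9 chromosome 16, 85794071 to 85803358) stood at 61.1 and 16.2 FPKM in libraries labelled cKO (replicates 1 and 2), against 19.2 and 6.41 FPKM in the controls. Within each pair the library labelled cKO was the higher one, but the groups overlap, since the replicate 2 library labelled cKO lies below the replicate 1 control. The log2 differences were 1.62 and 1.22 in the 2 pairs, and their mean of 1.42 ± 0.16 (moderated SE) passed (limma with the replicate block, adjusted p = 0.0297; between 0.0117 and 0.969 over 7 blocked fits, 3 of them past the threshold). In fits of 3 libraries, which have no block and so carry part of the replicate difference, the change was 0.49 with cKO replicate 1 left out, 2.35 with cKO replicate 2, 2.14 with control replicate 1 and 0.70 with control replicate 2. Fibroblasts also make ADAMTS1, MMP2 and TIMP2. The 8 fibroblast markers summed to 22.6 and 22.4 FPKM in libraries labelled cKO, against 16.9 and 8.64 FPKM in controls. Nearly all of it was Col1a2 and Col1a1, in unlike shares. Col1a2 stood at 21.9 and 13.8 FPKM in libraries labelled cKO (replicates 1 and 2), against 14.8 and 7.40 FPKM in controls. Col1a1 stood at 0.336 and 6.99 FPKM, against 1.80 and 0.802 FPKM. The other 6 were under 1 FPKM throughout, with Pdgfra between 0.0661 and 0.136 FPKM, and none was at 0 in all libraries. Their part in these results was not tested.

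Mmp11 (ENSMUSG00000000901; chromosome 10, 75385966 to 75403417) encodes stromelysin-3, an MMP that is activated inside the cell by furin-type convertases. It stood at 2.88 and 1.60 FPKM in libraries labelled cKO, against 11.03 and 5.94 FPKM in the controls. Both libraries labelled cKO lie below both controls. The differences of -1.63 and -1.42 in the pairs averaged -1.52 ± 0.20 on the log2 scale (limma, replicate block, adjusted p = 0.0442; between 0.0236 and 0.969 over 7 blocked fits, 2 of them past the threshold). With a pseudocount of 5 the change was -0.88, and without the replicate 2 library labelled cKO, in a fit with no block, it was -1.23. Its deposited locus is shared with Chchd10 and Gm867, so its edges need not be those of Mmp11.

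Timp2 (ENSMUSG00000017466; chromosome 11, 118162382 to 118217054) stood at 126 and 95.7 FPKM in libraries labelled cKO, against 254 and 185 FPKM in the controls. The groups do not overlap, and the pairs differed by almost the same amount, -1.01 and -0.94 on the log2 scale. The mean change was -0.98 ± 0.12 (limma, replicate block, adjusted p = 0.0347; between 0.0102 and 0.969 over 7 blocked fits, 3 of them past the threshold). Without the replicate 2 library labelled cKO, in a fit with no block, it was -0.78.

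Adamtsl4 (ENSMUSG00000015850; chromosome 3, 95480123 to 95491840) was close to the threshold without passing it. It stood at 75.4 and 50.2 FPKM in libraries labelled cKO, against 174 and 89.5 FPKM in the controls, with no overlap. It differed by -1.01 ± 0.14 on the log2 scale (limma, replicate block, adjusted p = 0.0572), with -1.20 and -0.82 in the pairs. With a pseudocount of 5 in place of 1 it passed (adjusted p = 0.0166; between 0.0166 and 0.969 over 7 blocked limma fits). In fits of 3 libraries with no block the change was -0.53 without control replicate 1 and -1.49 without control replicate 2.

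**Figure D2:**
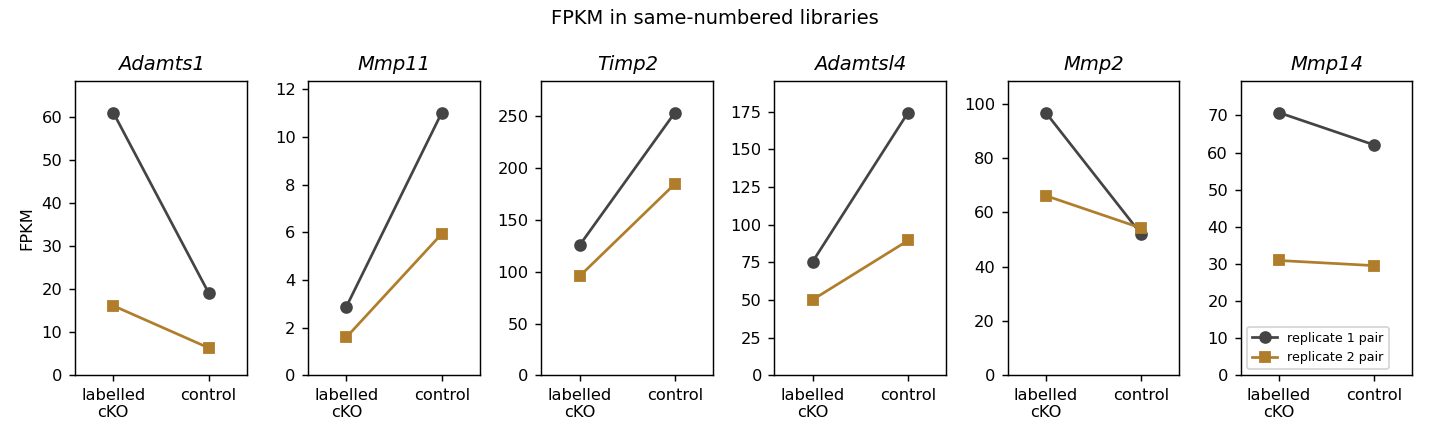
FPKM of 6 members in the library labelled cKO (left in each panel) and the control (right), with same-numbered libraries joined by a line; each panel has its own axis from 0. Adamts1 is higher in the library labelled cKO in both pairs (61.1 against 19.2 and 16.2 against 6.41 FPKM), Mmp11, Timp2 and Adamtsl4 are lower in the library labelled cKO in both, and Mmp14 stands at 31.0 and 29.6 FPKM in the replicate 2 pair and at 70.8 and 62.1 FPKM in the replicate 1 pair.

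The promoters of the 3 called members and of Adamtsl4 are shown because these genes moved most with the genotype, and SOX factors recognise short A/T-rich motifs. Each line gives the 250 bases before the start of the gene, 5′ to 3′ on the gene's strand, from RefSeq on GRCm38.p6; in that build they are chr16:85803114-85803363 for Adamts1, chr10:75932503-75932752 for Mmp11, chr11:118355412-118355661 for Timp2 and chr3:95687918-95688167 for Adamtsl4, all on the minus strand. Capitals mark matches to ACAAT or ACAAAG on either strand.
Adamts1: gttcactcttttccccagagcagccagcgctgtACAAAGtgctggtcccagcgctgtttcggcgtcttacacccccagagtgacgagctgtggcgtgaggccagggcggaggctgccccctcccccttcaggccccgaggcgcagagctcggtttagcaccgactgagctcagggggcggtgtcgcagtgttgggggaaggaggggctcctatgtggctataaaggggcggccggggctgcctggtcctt
Mmp11: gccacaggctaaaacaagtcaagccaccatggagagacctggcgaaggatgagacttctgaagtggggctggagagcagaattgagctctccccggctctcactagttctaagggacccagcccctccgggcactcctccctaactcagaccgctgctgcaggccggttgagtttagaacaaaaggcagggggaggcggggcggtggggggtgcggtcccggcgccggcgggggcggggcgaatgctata
Timp2: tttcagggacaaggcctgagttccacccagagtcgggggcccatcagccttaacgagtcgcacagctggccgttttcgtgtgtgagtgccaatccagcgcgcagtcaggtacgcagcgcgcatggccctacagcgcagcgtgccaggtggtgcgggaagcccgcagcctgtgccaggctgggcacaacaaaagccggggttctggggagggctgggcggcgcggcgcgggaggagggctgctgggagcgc
Adamtsl4: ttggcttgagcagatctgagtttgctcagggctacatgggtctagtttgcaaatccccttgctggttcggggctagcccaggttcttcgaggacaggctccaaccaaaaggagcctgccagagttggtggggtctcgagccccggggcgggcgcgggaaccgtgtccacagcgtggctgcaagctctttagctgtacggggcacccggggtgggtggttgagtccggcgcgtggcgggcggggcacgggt

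The Adamts1 window holds 1 ACAAAG on the gene's strand, which starts 217 bases before the gene, and the other 3 windows hold neither motif. Promoters were matched for 36 of the 51 members, with 39 promoter windows. ACAAT was found in 11 of these 39, or 28.2%, against 27.7% of all 32851 promoter windows, and ACAAAG in 8, or 20.5%, against 16.5%. The inverted pairs ACAATNNNATTGT, ACAATNNNNATTGT and ACAATNNNNNATTGT were found in 0 of the 39 and in 12, 9 and 10 of all windows. The 4 windows shown are rich in G and C, between 63.2% and 68% against a median of 52.4% over all promoter windows.

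The gelatinases and the membrane-type MMPs did not pass the test. Mmp2 stood at 96.7 and 66.1 FPKM in libraries labelled cKO, against 51.96 and 54.2 FPKM in the controls, without overlap of the groups; it differed by 0.58 ± 0.17 (limma, replicate block, adjusted p = 0.341). Mmp15, another membrane-type MMP, stood at 7.89 and 10.5 FPKM in libraries labelled cKO, against 4.59 and 5.76 FPKM in the controls, also without overlap (0.72 ± 0.17, adjusted p = 0.261 with limma and the replicate block). Mmp14 stood at 70.8 and 31.0 FPKM in libraries labelled cKO, against 62.1 and 29.6 FPKM in the controls, a log2 change of 0.13, which turned to -0.0070 when libraries were rescaled to the same sum. The second gelatinase, Mmp9, stood at 0.945 and 2.51 FPKM in libraries labelled cKO, against 0.748 and 2.28 FPKM in the controls. Mmp17, a membrane-type MMP anchored by a lipid, was nearly level, at 4.77 and 3.97 FPKM in libraries labelled cKO, against 4.45 and 4.72 FPKM in controls. Mmp28, or epilysin, stood at 2.53 and 1.02 FPKM in libraries labelled cKO, against 2.12 and 1.70 FPKM in controls.

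Among the other ADAMTS genes, Adamts10, which acts on fibrillin microfibrils, stood at 4.36 and 2.87 FPKM in libraries labelled cKO, against 5.98 and 7.84 FPKM in the controls. Its groups do not overlap, and its change of -0.79 ± 0.24 did not pass (limma with the replicate block, adjusted p = 0.366). The procollagen N-proteinase Adamts2 stood at 1.345 and 0.362 FPKM in libraries labelled cKO, against 1.67 and 1.23 FPKM in the controls, and its relative Adamts14 at 1.81 and 1.42 FPKM, against 1.99 and 1.41 FPKM. Adamts9, of the proteoglycan-cutting branch, stood at 1.499 and 1.38 FPKM in libraries labelled cKO, against 1.16 and 1.22 FPKM in the controls. None of these passed the threshold with or without the block. Adamtsl5 stood at 28.6 and 22.5 FPKM in libraries labelled cKO, against 33.8 and 16.8 FPKM in the controls, and Adamtsl3 at 2.35 and 1.91 FPKM, against 2.87 and 0.883 FPKM; for both genes the pairs point in opposite directions. Adamtsl1 stood at 0.315 and 0.331 FPKM in libraries labelled cKO, against 0.384 and 0.716 FPKM in controls, and Adamtsl2 at 0.114 and 0.146 FPKM, against 0.0983 and 0.0576 FPKM.

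Of the other 3 Timp genes, Timp3 was tested and not called, and Timp1 and Timp4 lay below the filter. Timp3, which binds to the matrix and also blocks ADAMTS proteases, stood at 7.53 and 9.10 FPKM in libraries labelled cKO, against 8.56 and 5.28 FPKM in the controls. Its pairs point in opposite directions (-0.17 and 0.69), and its mean change of 0.26 ± 0.23 did not pass (limma with the replicate block, adjusted p = 0.739). Timp1, a soluble inhibitor, stood at 0.0906 and 2.65 FPKM in libraries labelled cKO, against 0.211 and 0.393 FPKM in the controls. The 2.65 FPKM belong to the library with high Acta2, Tagln and Des, where Acta2 stood at 35.8 FPKM against at most 2.81 FPKM elsewhere. Col1a1 and Fn1 were also highest there (6.99 and 10.4 FPKM, against at most 1.80 and 1.77 FPKM elsewhere). The fibroblast markers Col1a2, Pdgfra, Twist2 and Dpt were not. The part of these genes in the Timp1 value was not tested. Mmp3 was likewise highest in that library (0.485 and 1.46 FPKM in libraries labelled cKO, against 0.531 and 0.202 FPKM in the controls). The loci of Timp1 and Timp3 are shared with Syn1 and Syn3, within whose introns they lie.

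**Figure D3:**
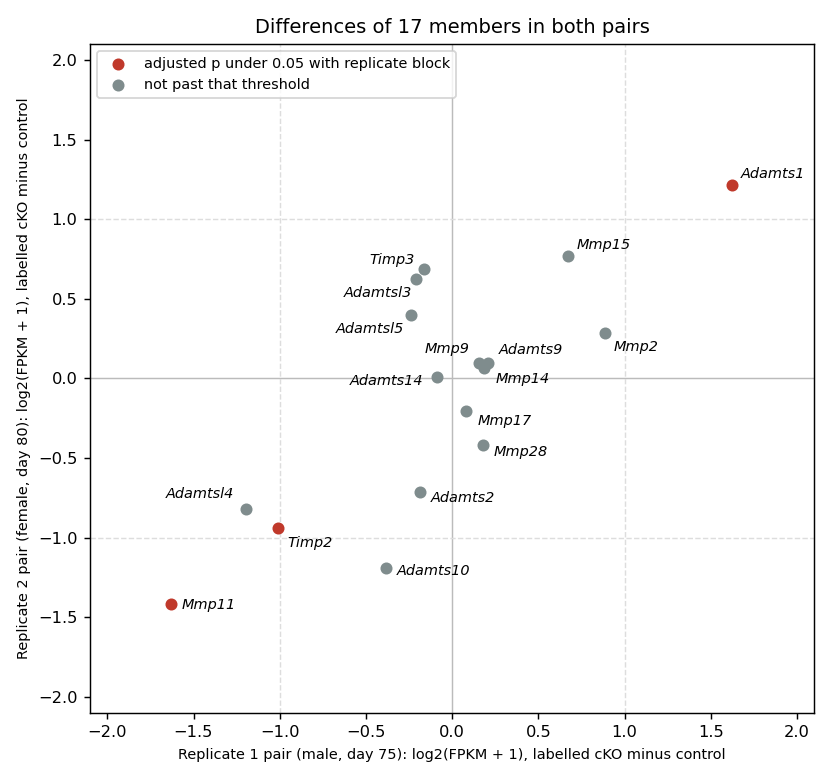
Difference in log2(FPKM + 1), library labelled cKO minus control, of the 17 tested members in the replicate 1 pair (horizontal axis) and the replicate 2 pair (vertical axis); red points passed an adjusted p of 0.05 in the blocked limma fit and dashed lines mark 2-fold. Adamts1 lies beyond 2-fold higher and Mmp11 beyond 2-fold lower in both pairs, Timp2 at -1.01 and -0.94, and the other members are within 2-fold in at least 1 pair.

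Counts that need no model of the spread were made over the 17 tested members. Adamts1 was at least 2-fold higher in both pairs, as were 0.194% of all tested genes, and Mmp11 at least 2-fold lower, as were 0.277%; both directions together are 2 of 17 members and 0.47% of genes. The groups did not overlap for 7 of 17 members, against 13.9% of all tested genes: Mmp2, Mmp15 and Adamts9 lay above the controls in both libraries labelled cKO (5.47% of genes), and Mmp11, Timp2, Adamtsl4 and Adamts10 below them in both (8.42%). Both pairs were higher for 6 of 17 and lower for 5, against 28.4% and 29.6% of all tested genes. The pairs pointed in opposite directions for the other 6, against 41.5%, with 0 members and 0.125% of genes at 2-fold each way. The median log2 change of the 17 members was 0.08, against -0.01 over all tested genes.

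Since TIMPs block MMPs by binding them, the levels of proteases and inhibitors were set side by side within each library. The protease sum also takes in the Adamts genes, whose proteases TIMP3 also blocks. These ratios are of transcript levels per length and not of protein. The summed FPKM of all Mmp and Adamts genes was 261 and 144 in libraries labelled cKO, against 173 and 126 in the controls, and that of the 4 Timp genes 133 and 107, against 262 and 191. The ratio of proteases to TIMPs was thus 1.96 and 1.34 in libraries labelled cKO, against 0.658 and 0.660 in the controls. The ratio of Mmp2 to Timp2 was 0.770 and 0.691 in libraries labelled cKO, against 0.205 and 0.293 in the controls, and that of Mmp14 to Timp2 was 0.564 and 0.323, against 0.245 and 0.160. In each of these ratios both libraries labelled cKO lie above both controls. They were chosen with these values known, so no test was made, and they share Timp2 in the denominator. Timp2 made up between 89.1% and 97.0% of the Timp sum, so its lower level in libraries labelled cKO enters each ratio. Adamts1 held 61.1 of the 261 FPKM of proteases in the replicate 1 library labelled cKO. Mmp14 itself changed little (log2 change 0.13). The ratios thus repeat values of genes given above.

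Other genes of the proteolytic network were counted from 7 lists, of which 44 of 72 genes passed the filter and 1 was called in the blocked fit, against 0.284% of all tested genes. That gene is Thbs2, a matricellular protein that promotes the uptake of MMP2 by its clearance receptor: it was higher, at 34.4 and 16.1 FPKM in libraries labelled cKO, against 12.1 and 7.30 FPKM in controls (log2 change 1.24; limma, replicate block, adjusted p = 0.0471). It was the one call among 5 tested genes of other metalloprotease inhibitors; Papln, which encodes papilin, stood at 35.8 and 13.9 FPKM in libraries labelled cKO, against 52.7 and 20.4 FPKM in the controls (adjusted p = 0.279 in the same limma fit). The 5 tested ADAM sheddases, 9 activators, 4 proteoglycans and 12 collagens and laminins held 0 calls. The 6 microfibril or glycoprotein genes and the 3 genes listed as clearance receptors also held 0. Tnc, which encodes the matrix glycoprotein tenascin-C, came closest among these substrates (27.7 and 17.3 FPKM in libraries labelled cKO, against 14.7 and 5.35 FPKM in the controls; limma, replicate block, adjusted p = 0.0897). The 3 tested genes listed as clearance receptors did not go one way. Cd44 encodes a receptor that holds MMP9 at the cell surface. It stood at 52.1 and 23.0 FPKM in libraries labelled cKO, against 50.5 and 13.7 FPKM in the controls (limma, replicate block, adjusted p = 0.490). Lrp1, which clears several MMPs, stood at 37.3 and 19.8 FPKM, against 47.8 and 22.8 FPKM (adjusted p = 0.506 in the same limma fit), and Cd63 at 88.3 and 154 FPKM, against 83.3 and 124 FPKM.

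SOX9 peaks near the member loci were counted to see which of these genes SOX9 binds close to in HFSCs and in the epidermis. A peak within 10 kb of the locus was present for 12 of 51 members in HFSC list 1, for 8 in HFSC list 2 and for 10 in the IFE list, against 22.6%, 14.4% and 22.5% of all 37298 rows. The 12, 8 and 10 members are 23.5%, 15.7% and 19.6% of the 51, close to these shares. The shares are not matched for locus length, and a longer locus has more room for a peak. The median locus is 36213 bp for the 51 members, against 17068.5 bp for all rows. For the tested members it is 25386 bp, against 25752 bp for all tested genes. Of the 17 tested members 7, 5 and 7 had such a peak, against 34.9%, 24.2% and 36.3% of all tested genes. In any list the counts were 17 of 51, against 32.7% of all rows, and 10 of the 17 tested, against 51.4% of tested genes. The lists hold 8181, 2989 and 5209 peaks, with positions only and no heights. The IFE list is 1 library, so its differences from the HFSC lists have no replicate check.

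Peaks of both HFSC lists lay within 10 kb of 7 members, and overlapped one another at all 7: Timp2, Adamtsl4, Adamtsl5, Mmp11, Mmp24, Mmp28 and Adamts17. This is 13.7% of the 51, against 10.6% of all rows with peaks of both lists and 9.5% with overlapping ones; of the 17 tested members it is 5, against 17.5% and 15.6% of tested genes. Timp2 and Adamtsl4 had no IFE peak within 10 kb. The other 5 had peaks in all 3 lists, against 8.7% of all rows, and 3 of them were among the 17 tested, against 14.5% of tested genes. In Timp2 the shared HFSC peak lies inside the locus, at 118188681 to 118189498 in list 1 and 118188711 to 118189385 in list 2, list 1 has a further peak at 118213470 to 118214157, and the nearest IFE peak lies 62890 bp beyond the locus. The Timp2 locus is also listed for BC100451.

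Adamtsl4 has 4 peaks of HFSC list 1 and 2 of HFSC list 2 within 10 kb, all outside its locus. The locus of Mcl1 also lies within 10 kb of the list 1 peak at 95477001 to 95477386. Going by RefSeq's strand, the peaks at 95478685 to 95479352 (list 1) and 95478879 to 95479434 (list 2) lie past the 3′ end, with centres 1104.5 and 966.5 bp beyond it. A second shared site, at 95500401 to 95500902 in list 1 and 95500453 to 95500805 in list 2, lies before the start, its centre 8811.5 bp away in list 1. The nearest IFE peak was 14003 bp from the locus. Adamtsl5 has a shared HFSC peak inside its locus (79807721 to 79808404 and 79807828 to 79808316) that an IFE peak at 79807759 to 79808277 also overlaps, its centre 3094.5 bp into the gene in list 1. The locus of Reep6 also lies within 10 kb of these peaks.

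The peaks beside Mmp11 lie at 75384223 to 75384763 in HFSC list 1, 75383732 to 75384546 in HFSC list 2 and 75384148 to 75384507 in the IFE list, between 1203 and 1459 bp below the locus, toward lower coordinates. The locus of Smarcb1 also lies within 10 kb of them, as do those of Chchd10 and Gm867, so that they cannot be assigned to Mmp11 alone. Mmp2 and Mmp15 had a peak inside the locus in the IFE list alone, at 95371603 to 95372001 and 97876205 to 97876888 on chromosome 8. The loci of Capns2, Lpcat2 and AC121604.1 also lie within 10 kb of the Mmp2 peak, and that of AA960436 of the Mmp15 peak. The Mmp15 peak has its centre 379.5 bp past the start of the gene on RefSeq's strand. Adamts1 had no peak within 10 kb in any list: the nearest lay 196637 bp above its locus in HFSC list 1, 423521 bp below it in HFSC list 2 and 597225 bp below it in the IFE list. Mmp14 had none either, with the nearest at 112703 bp, in the IFE list.

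**Figure D4:**
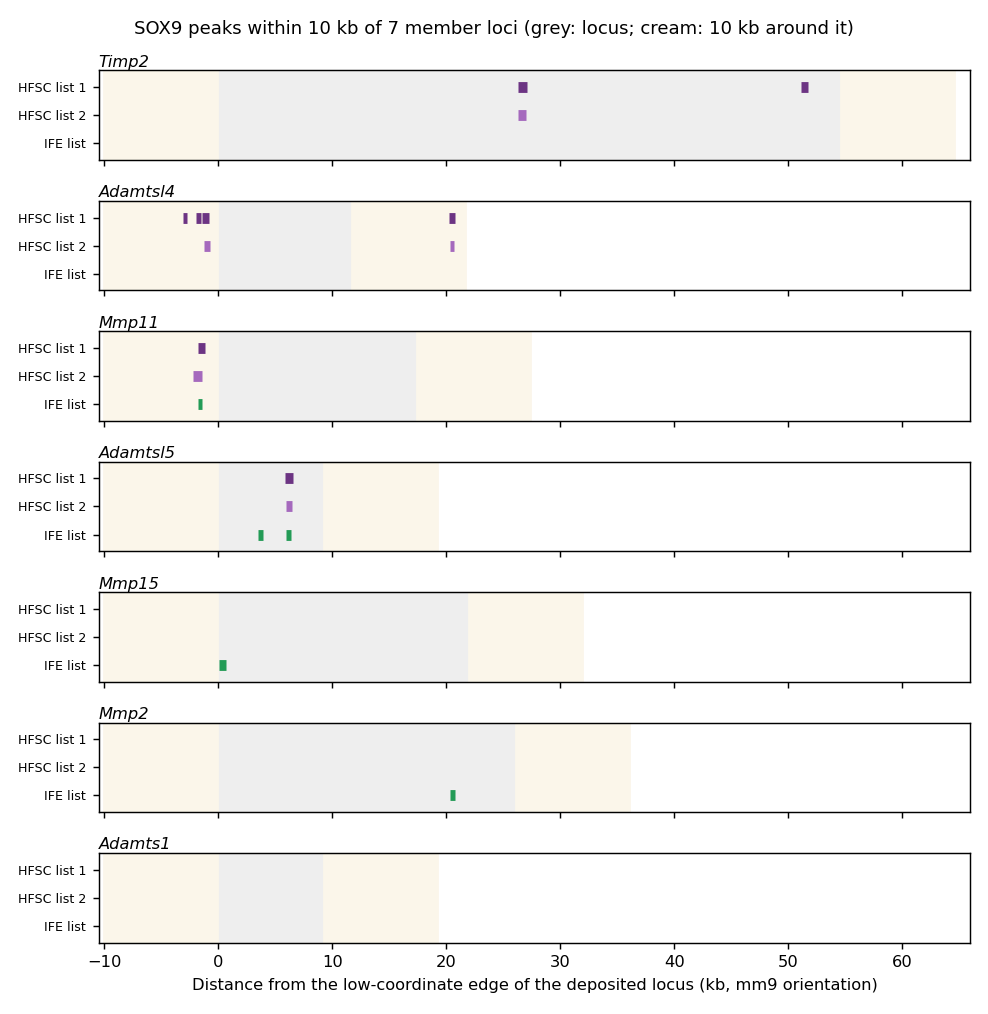
SOX9 peaks (bars, to scale) in HFSC list 1, HFSC list 2 and the IFE list at 7 member loci, by distance in kb from the low-coordinate edge of the deposited mm9 locus; grey is the locus and cream the 10 kb on either side. Timp2 and Adamtsl4 have peaks in both HFSC lists and none in the IFE list, Mmp11 and Adamtsl5 have them in all 3, Mmp15 and Mmp2 in the IFE list alone, and Adamts1 in none.

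The remaining peaks concern members with little expression or a wide locus. Mmp24 had overlapping peaks of all 3 lists within 325 bp of its locus while it stood at 0.00626 and 0.162 FPKM in libraries labelled cKO, against 0.0110 and 0.00842 FPKM in controls, and the locus of Eif6 lies within 10 kb of the same peaks. Adamts17, with a locus of 312891 bp, had 3 peaks in HFSC list 1, 1 in HFSC list 2 and 1 in the IFE list. It stood at 0.821 and 0.315 FPKM in libraries labelled cKO, against 1.18 and 0.460 FPKM in controls. Mmp28 was reached by 1 peak of each list at 9334 to 9646 bp, next to Taf15. Adamts7, Adamts9, Adamts18 and Adamtsl2 had peaks in HFSC list 1 alone, Mmp19 in HFSC list 2 alone, and Adamts2 and Timp1 in the IFE list alone. Timp3, whose locus spans 443772 bp, had 3 peaks in HFSC list 1 and 1 in the IFE list.

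The same 4 libraries also show how far the members differ between the female pair of day 80 and the male pair of day 75, a difference in which sex, age, RU486 days and any batch cannot be told apart. Replicate 2 was lower than replicate 1 for 6 of the 7 members called (limma with genotype in the model): Adamts1, Mmp14, Adamtsl4, Mmp11, Adamtsl5 and Timp2. The 7 of 17 called stand against 50% of all tested genes, 25.8% higher and 24.1% lower. Mmp14 stood at 31.0 and 29.6 FPKM in replicate 2 (labelled cKO and control), against 70.8 and 62.1 FPKM in replicate 1, a log2 change of -1.11 ± 0.13 (adjusted p = 0.000687, limma). Adamts1 stood at 16.2 and 6.41 FPKM in replicate 2, against 61.1 and 19.2 FPKM in replicate 1, a log2 change of -1.65 ± 0.16 (adjusted p = 0.000382, limma). Mmp9 was the one member called higher, at 2.51 and 2.28 FPKM in replicate 2, against 0.945 and 0.748 FPKM in replicate 1 (log2 change 0.88 ± 0.25, adjusted p = 0.0246, limma).

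MMP9 is also made by leukocytes, whose markers did not all move one way between the replicates. The 8 leukocyte markers summed to 39.9 and 35.8 FPKM in replicate 2, against 18.4 and 16.3 FPKM in replicate 1, most of it Itgam (27.6 and 20.3 FPKM, against 9.57 and 7.13 FPKM). Cd68, a macrophage gene, went the other way, at 1.92 and 2.46 FPKM in replicate 2, against 5.01 and 4.56 FPKM in replicate 1. The pan-leukocyte gene Ptprc stood at 0.152 and 0.390 FPKM in replicate 2, against 0.221 and 0.155 FPKM in replicate 1. Their part in the level of Mmp9 was not tested. Rescaling each library to the same FPKM sum moved the median replicate difference of all tested genes to -0.51, against -0.0013 as deposited. Of 14455 tested genes 8539 were then called, and of 17 members 11, all 11 lower and Mmp9 no longer among them. With no genotype term 6266 of the 14455 genes were called and 3 members, Mmp14, Adamtsl5 and Mmp9. Leaving out 1 library, in fits with no genotype term, put the replicate change of Adamts1 at -0.84 without cKO replicate 1, -1.04 without control replicate 2, -2.26 without cKO replicate 2 and -2.46 without control replicate 1. That of Adamtsl4 was -1.37 without cKO replicate 1, -0.36 without cKO replicate 2, -0.17 without control replicate 1 and -1.18 without control replicate 2. The called changes of Mmp11 and Timp2 turned to 0.023 and 0.050 without cKO replicate 2 and to 0.13 and 0.083 without control replicate 1, and were -1.50 and -0.93 without cKO replicate 1 and -1.39 and -0.89 without control replicate 2.

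**Figure D5:**
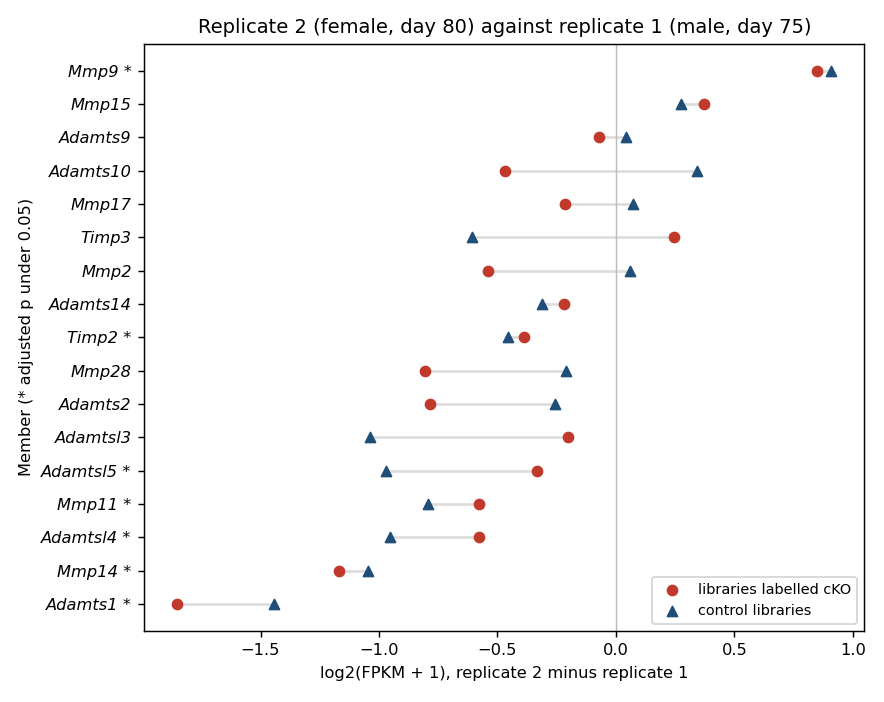
Difference in log2(FPKM + 1), replicate 2 (female, day 80) minus replicate 1 (male, day 75), of the 17 tested members within the libraries labelled cKO (red circles) and within the controls (blue triangles); an asterisk marks an adjusted p under 0.05 in limma with genotype in the model. Mmp9 is higher in replicate 2 in both genotypes, and Adamts1 and Mmp14 are at least 2-fold lower in both.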

How the data were processed

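Expression values were deposited as FPKM for 37298 gene rows, 1 column for each of 4 RNA libraries, per the file headers. Tools named in the submitters' processing notes are Cufflinks 1.0.3, TopHat, TopHat2 and Bowtie, on mm9 and without roles; no strand setting is stated. For each ChIP library the authors deposited 1 list of SOX9 peak positions, with no score; the caller is not named in these sources. Input libraries, 3 in number, were not used. Ratios of low FPKM values between libraries were binned to look for a common step. The fullest bin held 2.66% of genes for cKO replicate 1 against control replicate 1, and between 0.824% and 1.20% for the other pairs. Whether the larger share marks a step was not tested. No depth was read from these ratios, so the depth is unknown and no count model was used. In R 4.3.3, limma 3.58.1 tested log2(FPKM + 1) (mean trend, two-sided, Benjamini-Hochberg over all 14455 genes with a mean of at least 1 FPKM, threshold 0.05); folds on this scale understate changes of low genes. The planned fit has genotype alone, and the blocked fit adds the replicate number and leaves 1 residual degree of freedom. The numbers pair libraries of the same sex, age and RU486 days per the labels, and deviations of same-numbered libraries from their group means had a correlation of 0.812 over genes, which are not independent. SE is limma's moderated standard error. Loci are the deposited mm9 ones, several shared with neighbours. Named were called members, members at least 2-fold changed in both pairs, all Timp genes, the 5 highest of each family, members with peaks in both HFSC lists, and up to 4 genes of the other lists by smallest p. Members and lists were chosen with earlier results of these data known. Tests were checked on simulated data. Tables were made with Python 3.11.15 and pandas 2.3.3.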

Additional observations from a re-analysis of the deposited data

How the results depend on the processing

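With genotype alone 0 genes were called, and 7 with no filter on low values. With the replicate block 41 genes and 3 members were called. In the blocked fit a pseudocount of 0.1 gave 33 genes and 2 members, a pseudocount of 5 gave 78 and 4, rescaling to the same sum 9 and 0, and quantile normalization 3 and 0; no filter, or no mean trend, gave 0. Leaving out 1 library, without the block, gave between 2 and 41 genes and 0 members. Between replicates the count of members called was 7, but 11 after rescaling, 0 with no filter and 3 with no genotype term. Of all genes 7221, 8539, 0 and 6266 were called in these fits, out of 14455, or 37298 with no filter. Members at least 2-fold different in both pairs numbered 2, but 0 with a pseudocount of 5 and 4 after rescaling; with 2 pairs no library can be left out of this count. Within 50 kb, 25, 19 and 21 members had a peak in HFSC list 1, HFSC list 2 and the IFE list. Peaks of both HFSC lists lay within 50 kb of 19 members. These are 49.0%, 37.3%, 41.2% and 37.3% of the 51, against 38.2%, 25.5%, 36.5% and 20.9% of all rows. Without a window 3 members had one in HFSC list 2 and in both. This is 5.88% of the 51, against 10.9% and 7.65% of all rows. Some directions turned. For the labelled cKO libraries against controls, with and without the replicate block, Adamts14 was 0.011 with quantile normalization, and Adamtsl5 -0.049 and Mmp14 -0.0070 after rescaling. For replicate 2 against replicate 1, Adamts10 was 0.093, Adamts9 0.066 and Mmp17 0.10 with quantile normalization, and Mmp15 -0.18 after rescaling. With 1 library left out, the genotype change ran between -0.20 and 0.12 for Adamts14, -0.31 and 0.73 for Adamtsl3, -0.40 and 0.57 for Adamtsl5, -0.46 and 0.71 for Mmp14, -0.17 and 0.047 for Mmp17, -0.52 and 0.28 for Mmp28, -0.33 and 0.58 for Mmp9, and -0.043 and 0.56 for Timp3. The replicate change ran between -0.66 and 0.53 for Adamts10, -0.12 and 0.090 for Adamts9, -1.50 and 0.13 for Mmp11, -0.061 and 0.70 for Mmp15, -0.18 and 0.029 for Mmp17, -0.68 and 0.20 for Mmp2, -0.93 and 0.083 for Timp2, and -0.52 and 0.16 for Timp3; within these ranges the direction also turned without control replicate 2 for Adamts9 (0.035), without cKO replicate 2 for Mmp11 (0.023) and Timp2 (0.050), and without control replicate 1 for Mmp15 (-0.013). Fits of 3 libraries hold part of the other difference by construction, and the lone library is assumed to vary like the others; a blocked fit of 3 has no residual degrees of freedom. The fits with no genotype term were chosen after seeing the data. The cause of the other changes was not tested. With the depth unknown, the precision of low values cannot be given.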
